A study of Mus musculus with 10 samples.

Results

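The genes described here are the nuclear-encoded subunits of the mitochondrial respiratory chain and of ATP synthase, measured in the cochlea of mice fed germanium dioxide (GeO2). They were chosen by symbol from the authors' deposited table of significant genes: symbols that begin with Nduf, Sdh, Uqcr, Cox followed by a digit, or Atp5, apart from Cox6a1, Cox6b1, Cox7a1, Cox8b, Atp5k, Atp5a1, Atp5c1 and Atp5e. This gave 32 genes of the 5562 that the table names by 1 symbol, and 48 probe sets of the 7806 in that table. By complex, 17 genes belong to complex I, 3 to complex II, 3 to complex III, 2 to complex IV and 7 to complex V. The table served for names only, and every change was computed from the signals of the arrays. Because the authors selected the table on these same arrays, at a p-value under 0.05, its subunits had already been picked for a difference between the groups, and the counts of changed genes below are a description and no support.

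Both groups were male mice of the CBA strain, and all 10 samples were taken at 6 months of age. The GeO2 group had 0.15% GeO2 in the diet for 4 months, and the control group had normal chow, with 5 samples in each group. GeO2 given in food is a known mitochondrial toxicant used to produce hearing loss in mice. Total RNA of each cochlea sample was hybridised to 1 Affymetrix array, which reports 1 linear signal for each probe set. The labels do not say whether a sample came from 1 animal or from a pool, and the submitters' design note says that no replicates were made. The p-values below therefore measure only the spread between these samples. In RNA of a whole tissue, fewer cells of a type and less RNA per cell cannot be told apart.

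The respiratory chain passes electrons from NADH, at complex I, and from succinate, at complex II, through coenzyme Q to complex III, then by cytochrome c to complex IV, where oxygen is reduced. Complexes I, III and IV pump protons across the inner mitochondrial membrane, and complex V, the ATP synthase, lets them back through its membrane part to drive ATP synthesis in its F1 head. Most subunits are encoded in the nucleus and a few in mitochondrial DNA, and the transcription factors NRF1, GABP and YY1 are known to bind promoters of many of the nuclear genes. The cochlea depends on this pathway in the stria vascularis, which maintains the ionic composition of endolymph.

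The promoters of the subunit genes were searched for short letter strings of these factors because the genes are known to share such sites. The windows, from RefSeq on GRCm38.p6, run from 250 bases before to 50 bases after the annotated start, and 31 of the 32 genes had one; Sdhc did not. The strings were GCATGCGC for NRF1, CCGGAAG for GABP and AAGATGGC for YY1, on both strands. The NRF1 string can overlap its own reverse complement, as it does in Atp5g2, and a gene with several matches was counted once. Stretches from 90 bases before to 30 bases after the start are shown for genes called lower that hold the NRF1 or the YY1 string inside the stretch, and for the genes called higher in GeO2. Capitals mark whole strings. The stretches lie at chr15:102671018-102671137, minus strand (Atp5g2), chr2:36049309-36049428, minus strand (Ndufa8), chr4:140961181-140961300, plus strand (Sdhb), chr7:3617283-3617402, plus strand (Ndufa3), chr3:51408926-51409045, minus strand (Ndufc1), chr16:84834947-84835066, minus strand (Atp5j), chr6:126849115-126849234, minus strand (Ndufa9) and chr4:123718157-123718276, minus strand (Ndufs5).
Atp5g2: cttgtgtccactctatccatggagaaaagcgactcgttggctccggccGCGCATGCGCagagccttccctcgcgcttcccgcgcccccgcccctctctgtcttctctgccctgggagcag
Ndufa8: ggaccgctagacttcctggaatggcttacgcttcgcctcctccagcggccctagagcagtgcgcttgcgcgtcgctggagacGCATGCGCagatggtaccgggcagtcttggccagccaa
Sdhb: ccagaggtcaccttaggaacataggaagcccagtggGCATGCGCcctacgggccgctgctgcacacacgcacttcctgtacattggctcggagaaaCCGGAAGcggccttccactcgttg
Ndufa3: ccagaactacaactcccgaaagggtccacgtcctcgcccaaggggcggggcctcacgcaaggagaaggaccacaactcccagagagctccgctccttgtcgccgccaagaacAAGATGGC
Ndufc1: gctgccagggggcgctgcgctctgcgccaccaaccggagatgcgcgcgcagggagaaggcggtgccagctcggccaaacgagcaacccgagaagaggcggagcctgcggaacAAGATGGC
Atp5j: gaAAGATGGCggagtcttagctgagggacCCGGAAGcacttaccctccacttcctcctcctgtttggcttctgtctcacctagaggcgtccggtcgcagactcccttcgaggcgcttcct
Ndufa9: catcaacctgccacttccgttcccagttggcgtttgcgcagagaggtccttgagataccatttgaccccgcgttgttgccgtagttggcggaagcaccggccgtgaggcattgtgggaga
Ndufs5: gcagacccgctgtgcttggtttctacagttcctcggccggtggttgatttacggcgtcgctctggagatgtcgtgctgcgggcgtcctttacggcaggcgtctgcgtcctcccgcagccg

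The NRF1 string was found in 7 of the 31 windows (22.6%), against 3.05% of 27025 RefSeq gene windows and 6.23% of the 4123 windows of genes in the authors' table. It was in Atp5g2, Atp5l, Ndufa11, Ndufa8, Sdhb, Uqcr11 (listed as Uqcr) and Uqcrc1. The YY1 string was found in 8 windows (25.8%), against 3.19% of all windows and 6.09% of the table's, in Atp5j, Atp5j2, Ndufa3, Ndufa9, Ndufb8, Ndufc1, Ndufs4 and Ndufs7. In 7 of these 8 genes it lay after the start, between positions 23 and 46. The exception was Atp5j, where it lay at -88 to -81. The GABP string was found in 6 windows (19.4%), against 9.93% of all windows and 20.2% of the table's. Its longer form CCGGAAGT was found in 1 window (3.23%), against 4.31% of all windows and 8.85% of the table's. At least 1 of the 3 strings stood in 17 of the 31 windows (54.8%), against 14.9% of all windows. That share was not taken for the table's windows, where each string was more frequent than in all windows. Of the genes higher in GeO2, Ndufa9 held the YY1 string from position 30 to 37, beginning at the last base shown above, and Ndufs5 held none of the 3. The genes with the NRF1 string had a median log2 change of -0.62 and those without it -0.44. For the YY1 string these medians were -0.54 and -0.45, and for the GABP string -0.39 and -0.49.

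Transcripts of most of these subunits were lower in the GeO2 cochlea. At 1 probe set per gene, the one with the highest mean, 24 of the 32 genes were called lower, 2 were called higher (Ndufa9 and Ndufs5, both of complex I) and 6 did not pass the test (Ndufa11, Ndufs4, Ndufv2, Sdha, Uqcr and Cox7a2). The median log2 change of the 32 genes was -0.49, while the median was -0.02 over all 27022 probe sets tested and 0.25 over those of them in the authors' table. The test was limma's, on log2(signal + 16), with Benjamini-Hochberg adjustment over the 27022 probe sets and a threshold of 0.05. Over all probe sets tested, 7.81% were called lower and 8.5% higher, and of the tested probe sets that the authors' table holds, 28.5% were lower and 31.2% higher. All 48 probe sets of the 32 genes passed the filter on dim probe sets, and 35 of them (72.9%) were called lower, 3 higher (6.25%) and 10 neither.

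In 25 of the 48 probe sets every GeO2 signal lay below every control signal, in 1 every GeO2 signal lay above, and in 22 the groups overlapped. Complete separation of this kind was seen for 5.62% of all tested probe sets in the lower direction and 6.55% in the higher direction, and for 20% and 23.7% of those of the table. Most of these subunits give bright signals: 40 of the 48 probe sets were in the brightest 10% of the array, where 33 were called lower and 3 higher. Of the other 4464 probe sets that bright, 10.8% were called lower and 13.5% higher, with a median log2 change of 0.03. Of the 8 dimmer probe sets of these genes, 2 were called lower. Across the 48 probe sets the mean log2 level and the log2 change had a Pearson correlation of 0.09 and a Spearman correlation of 0.30. That is a description, since the probe sets share the same 10 arrays and some share a gene.

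**Figure D1:**
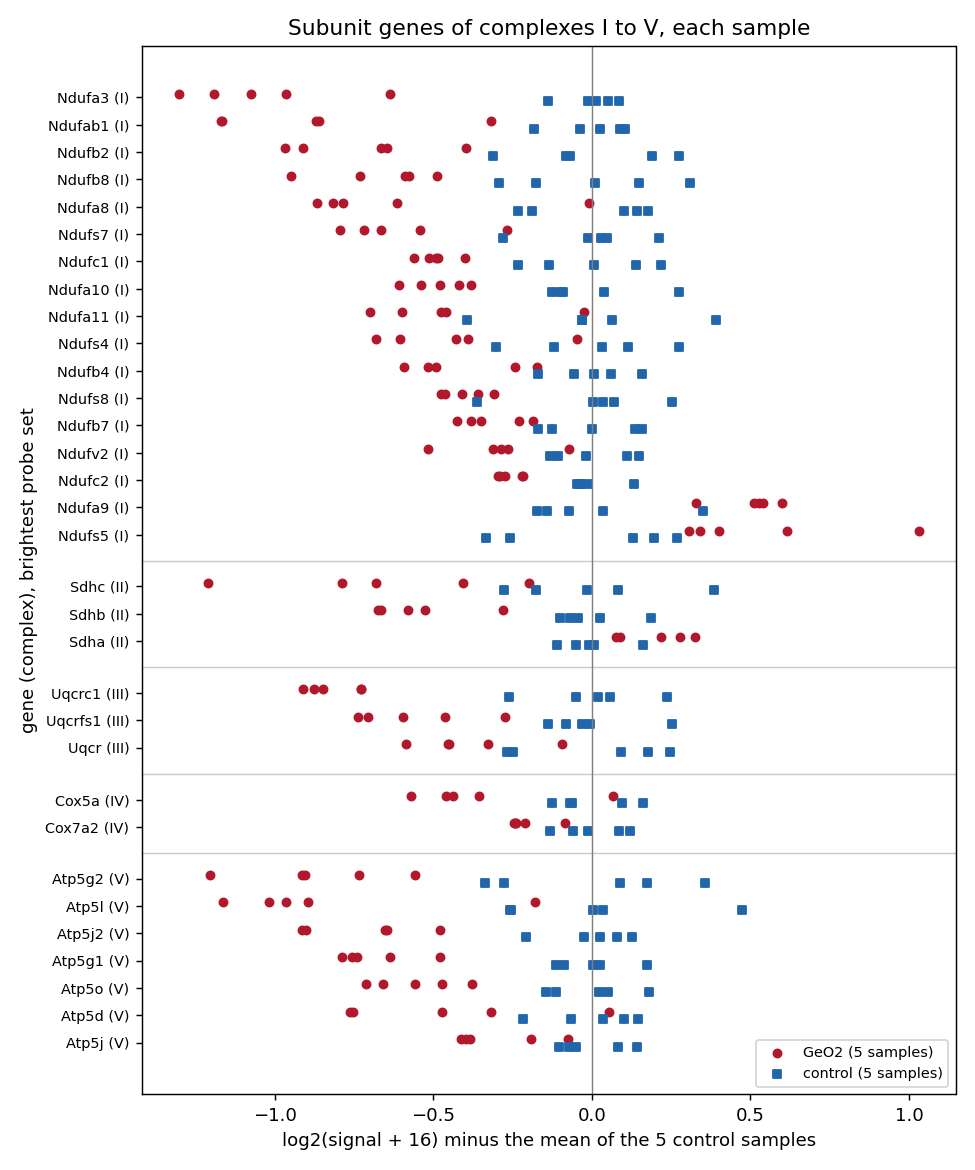
Log2(signal + 16) of each of the 32 genes at its brightest probe set, minus the mean of the 5 control samples, with 1 row per gene grouped by complex; red circles are the 5 GeO2 samples and blue squares the 5 control samples. Most red circles lie left of the blue squares. In the row of Ndufs5 they lie to the right, and in those of Ndufa9 and Sdha they lie mostly to the right, with some overlap.

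Cell type markers moved between the same groups of samples. Of 20 erythroid genes (hemoglobin, heme synthesis and red cell membrane), 18 were tested and 17 were called lower in GeO2, with a median log2 change of -2.56. The gene not called was the hemoglobin gene Hba-a1 (log2 change -0.21, adjusted p = 0.128). Its means were 35964 in GeO2 and 41438 in control, with overlapping groups. The summed signal of the 18 erythroid genes ranged between 88157 and 159089 in the GeO2 samples and between 186321 and 296541 in the control samples. All 19 tested genes of dividing cells were lower, with sums between 29829 and 71122 in GeO2 and between 66394 and 125263 in control. Of 14 macrophage and neutrophil genes, 3 were named and tested, and all 3 were higher (Lcn2, Clec4n and Msr1), with sums between 3869 and 28149 in GeO2 and between 1041 and 2235 in control. Lcn2 was the largest part of that sum in every GeO2 sample. Its signals were 4727, 5845, 23802, 2713 and 21782.5 in GeO2 replicates 1 to 5. Of 15 genes of cochlear supporting and stria cells, 8 were tested, of which 6 were lower (among them Kcne1, Kcnq1 and Atp1b2), 1 higher (Otog) and 1 neither. Their summed signal ranged between 77848 and 99859 in GeO2 and between 94070 and 107664 in control. Gjb6, the gene called neither, was the largest part of that sum, with means of 41547 in GeO2 and 36225 in control. The 6 lower genes changed by -2.96 (Kcne1), -1.24 (Kcnq1), -0.99 (Atp1b2), -0.67 (Esrrb), -0.64 (Otor) and -0.56 (Slc12a2). Otog changed by 0.73 and Gjb6 by 0.20. Of 15 bone and cartilage genes 4 were tested, with 1 lower (Alpl), 1 higher (Dmp1) and 2 neither. Of 12 hair cell genes only Myo6 and Tmc1 were named, Tmc1 was below the filter, and Myo6 was higher (log2 change 0.65, adjusted p = 0.0351). Skeletal muscle genes were not named in the table and were not analysed here. No signal on the arrays was at 0. By sample, the erythroid sums were 131333, 159089, 88157, 104683 and 93418 in GeO2 replicates 1 to 5, and 267429, 284666, 186321, 289104 and 296541 in control replicates 1 to 5. The part of these cell types in the subunit changes was not tested.

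Complex I has a matrix arm, which oxidises NADH and holds the iron-sulfur clusters, and a membrane arm, which pumps protons. Of its 17 genes here, 12 were lower, 2 higher and 3 did not pass, with a median log2 change of -0.45. In the matrix arm 2 of 5 genes were lower and 1 was higher, and in the membrane arm 10 of 12 were lower and 1 was higher. The medians were -0.40 and -0.49.

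In the matrix arm, Ndufs7 carries the last iron-sulfur cluster before coenzyme Q. Its signals were 10186, 9359.8, 12342, 9018 and 8548 in the GeO2 samples, against 15345, 17199, 15165, 14738 and 12236 in the control samples (log2 change -0.60, SE 0.12, adjusted p = 0.00557). The groups touched at 1 pair, GeO2 replicate 3 and control replicate 5. Ndufs8, which also binds iron-sulfur clusters, had 10402, 9945, 10766, 11165 and 10019.6 in GeO2, against 14506, 16483, 14179, 13854 and 10758 in control at its brightest probe set (log2 change -0.40, SE 0.11, adjusted p = 0.0235). There control replicate 5 lay inside the GeO2 range and the other 4 control samples above it. Ndufv2, an iron-sulfur subunit of the NADH-oxidising module, averaged 20142 ± 2203 in GeO2 and 24587 ± 2150.1 in control (SD, n = 5 each), and did not pass at this probe set (log2 change -0.29, SE 0.09, adjusted p = 0.0506). Ndufs4, an accessory subunit whose loss causes Leigh-like disease in mice, averaged 729 ± 133 in GeO2 and 985 ± 152 in control and did not pass either (log2 change -0.43, SE 0.16, adjusted p = 0.0827).

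Ndufa9, an accessory subunit of the matrix arm near the coenzyme Q site, went the other way. Its signals were 15935, 19233, 18092, 18296 and 18447 in the GeO2 samples, against 11236, 12051, 11498, 16184 and 13006 in the control samples (log2 change 0.50, SE 0.11, adjusted p = 0.00784). Control replicate 4 was the 1 control sample that exceeded a GeO2 sample, replicate 1, and the remaining pairs were higher in GeO2. Ndufs5, an accessory subunit on the intermembrane-space face of the membrane arm, was also higher. It had 6496, 7535, 10054, 6079 and 6223 in GeO2, against 3894, 5917, 5631, 5379.7 and 4105 in control (log2 change 0.54, SE 0.16, adjusted p = 0.0398). All 5 GeO2 samples were above all 5 control samples, and GeO2 replicate 3 was well above the other 4. Its other probe set gave 5647, 6106, 8516, 5902 and 5609 in GeO2, against 4480.3, 5808, 4386, 4062 and 3335 in control (log2 change 0.53, SE 0.16, adjusted p = 0.0358), and here control replicate 2 overlapped the GeO2 samples. The Ndufs5 call was lost at both probe sets without GeO2 replicate 3 (adjusted p 0.0717 and 0.0664), while Ndufa9 passed in each of the 10 fits that left out 1 sample.

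In the membrane arm, and among the 17 genes of complex I at their brightest probe sets, the largest decrease was in the small accessory subunit Ndufa3. Its signals were 11624, 10768, 14610.1, 9195 and 9932 in the GeO2 samples, against 22535, 23518, 22913, 24069.5 and 20637 in the control samples (log2 change -1.03, SE 0.12, adjusted p = 0.000494). The control samples lay close together and the highest GeO2 sample, replicate 3, was well below the lowest of them. Ndufab1, the mitochondrial acyl carrier protein, which is also a complex I subunit, had 5386, 5350.2, 7867, 4347 and 4355 in GeO2, against 9546, 9967, 10548, 10425 and 8643 in control (log2 change -0.88, SE 0.15, adjusted p = 0.0029). Ndufb2 had 8766, 8642, 10421, 7287 and 7014 in GeO2, against 13078, 16613, 15655, 12964 and 11044 in control (log2 change -0.72, SE 0.14, adjusted p = 0.0045). In both, the groups were separate, with GeO2 replicate 3 the highest of its group. Ndufb8, a subunit whose protein is often used as a marker of assembled complex I, had 12514, 12408, 13302, 11234 and 9669.9 in GeO2, against 16528, 23135, 18782, 20671 and 15241 in control (log2 change -0.67, SE 0.12, adjusted p = 0.00433). All of its GeO2 samples were below all control samples.

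Other accessory subunits of the membrane arm had smaller or more variable changes. Ndufa8, a cysteine-rich subunit facing the intermembrane space, had 7148, 6349, 10885, 6216 and 6007 in GeO2, against 9623, 11762, 12103, 12392 and 9319 in control (log2 change -0.62, SE 0.16, adjusted p = 0.0198). GeO2 replicate 3 stood inside the control range and the other 4 GeO2 samples below it. Ndufc1, Ndufc2, Ndufb4, Ndufb7 and Ndufa10 were lower with separate groups at their brightest probe sets, by log2 changes of -0.49, -0.26, -0.40, -0.31 and -0.49. The remaining member, Ndufa11, was dim: it averaged 413 ± 82.7 in GeO2 and 572 ± 115 in control and did not pass (log2 change -0.45, SE 0.19, adjusted p = 0.115), with overlapping groups.

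In complex II, succinate dehydrogenase, 2 of 3 genes were lower. Sdhb, its iron-sulfur subunit, had 17347, 13302, 14104, 14630.4 and 13198 in the GeO2 samples, against 20456, 21455, 19677, 24015 and 20099 in the control samples (log2 change -0.55, SE 0.09, adjusted p = 0.00309), and the groups were separate. Sdhc, a membrane anchor, had 4815, 3983, 5568, 2752 and 3692 in GeO2, against 5276, 8344, 5649, 6769 and 6324 in control (log2 change -0.66, SE 0.18, adjusted p = 0.0269). GeO2 replicate 3 lay above 1 control sample, so the groups overlapped. Sdha, the flavoprotein that oxidises succinate, had 32232, 32459, 38311, 37063 and 35539.7 in GeO2, against 28312, 30725, 29489.8, 34168 and 30349 in control and did not pass (log2 change 0.20, SE 0.08, adjusted p = 0.0985). Its GeO2 signals overlapped the control signals through control replicate 4 only, and it was called higher after quantile normalization (adjusted p = 0.0278) and with array weights (0.0405). The unadjusted 95% interval of its log2 change was 0.03 to 0.36, and those of Sdhb and Sdhc were -0.75 to -0.34 and -1.05 to -0.26. The genes were picked at a p-value under 0.05 on these same arrays. That these intervals leave out 0 was thus largely set by the choice of genes, and is no support for a change.

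In complex III, which oxidises coenzyme Q, 2 of 3 genes were lower. Uqcrc1, a core protein, had 7736, 7743, 6816, 6992 and 7127 in the GeO2 samples, against 13350.3, 13013, 10698, 15119 and 12402 in the control samples (log2 change -0.82, SE 0.10, adjusted p = 0.000707). The GeO2 samples were nearly equal and every control sample was well above them. Uqcrfs1, the Rieske iron-sulfur protein, had 14097, 12857, 16080.0, 11673 and 11915 in GeO2, against 18402, 19048, 17698, 23179 and 19397 in control (log2 change -0.56, SE 0.11, adjusted p = 0.00502), also with separate groups. Uqcr, a small subunit now named Uqcr11, had 5196, 5660.1, 6655, 4733 and 5188 in GeO2, against 5990.0, 7580.5, 8446, 8035 and 5904 in control and did not pass (log2 change -0.38, SE 0.13, adjusted p = 0.0664). Control replicates 1 and 5 lay below the highest GeO2 sample.

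Complex IV, cytochrome c oxidase, has 2 genes here, and they had the smallest median of the complexes, -0.28. They were also read at the brightest probe sets, with a median percentile of mean level of 99.7. Of its genes left out by the rule, Cox6a1 and Cox6b1 changed by -0.29 and -0.33 at their brightest probe sets. The dimmer Cox7a1 and Cox8b changed by -0.90 and -1.07, and the dimmer probe set of Cox6a1 by -1.19. The part of brightness in the order of the complexes was not tested. Cox5a, a nuclear-encoded subunit on the matrix side, had 24776, 28763, 38495, 27176 and 26724 in the GeO2 samples, against 35255, 41124, 39312, 35099 and 33705 in the control samples (log2 change -0.35, SE 0.11, adjusted p = 0.0463). GeO2 replicate 3 was at the level of the control samples and the other 4 were below all of them. Cox7a2, the widely expressed form of subunit 7a, had 39996, 39215, 43579, 39124 and 38967 in GeO2, against 44388, 49030.0, 50257, 45822 and 42181 in control at its brightest probe set and did not pass (log2 change -0.20, SE 0.07, adjusted p = 0.0579). Its other probe set had 16969.8, 14949.5, 17749, 15669.6 and 15469.7 in GeO2, against 20161, 20932, 21716, 21439 and 19587 in control and passed, with separate groups (log2 change -0.36, SE 0.08, adjusted p = 0.00778).

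All 7 genes of complex V were called lower, with a median log2 change of -0.68. Atp5g1 and Atp5g2 encode the same mature c subunit, which forms the rotor ring in the membrane. Atp5g1 had 6708, 6034, 7481, 6173 and 6235 in the GeO2 samples, against 10627, 11767, 10456, 9829.7 and 9641 in the control samples (log2 change -0.68, SE 0.10, adjusted p = 0.00132). Atp5g2 had 3938, 2843, 4456, 3481 and 3499 in GeO2, against 6979, 8408, 7404, 5414 and 5195 in control (log2 change -0.86, SE 0.16, adjusted p = 0.00378). In both genes the groups were separate; as the genes are similar in their coding parts, signal shared between their probe sets was not tested. Atp5j2, subunit f of the membrane part, had 21583, 19129, 19193, 15940.5 and 16094 in GeO2, against 29565, 31746, 32847, 30574 and 26030.5 in control (log2 change -0.72, SE 0.10, adjusted p = 0.00118). All control samples were far above the GeO2 samples. Atp5l, subunit g, had 1796, 1651, 2965, 1711 and 1491 in GeO2, against 3442, 4673, 2812, 3367 and 2803 in control (log2 change -0.84, SE 0.19, adjusted p = 0.0117). GeO2 replicate 3 reached the lower control samples, while the other 4 GeO2 samples were far below them.

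Atp5o, Atp5d and Atp5j, all of the stalks of complex V, changed less than the genes of its membrane part. Their median was -0.45 over 3 genes, against -0.78 over 4, and no test was made of that difference. Of the F1 genes left out by the rule, Atp5a1 changed by -1.22, Atp5e by -0.90 and Atp5c1 by 0.90. Atp5k of the membrane part, also left out, changed by -1.49 at its brightest probe set. Atp5o, the stalk protein that ties F1 to the membrane part (OSCP), had 10426, 11072, 11822, 9362 and 9721 in GeO2, against 15934, 13900.1, 17409.9, 15612 and 14219 in control (log2 change -0.56, SE 0.10, adjusted p = 0.00304), with separate groups. Atp5d, the delta subunit of the central stalk, had 19042, 17118, 24620.2, 14065 and 13994 in GeO2, against 24329, 26256, 25474, 22664 and 20438 in control at its brightest probe set (log2 change -0.45, SE 0.14, adjusted p = 0.0477). GeO2 replicate 3 lay inside the control range and GeO2 replicates 4 and 5 were the lowest. Atp5j, coupling factor 6 of the peripheral stalk, had 23778, 20401, 25823, 20832 and 20623 in GeO2, against 25308, 28768, 29992, 25859 and 26256 in control (log2 change -0.29, SE 0.09, adjusted p = 0.0387), and GeO2 replicate 3 again overlapped the control samples.

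**Figure D2:**
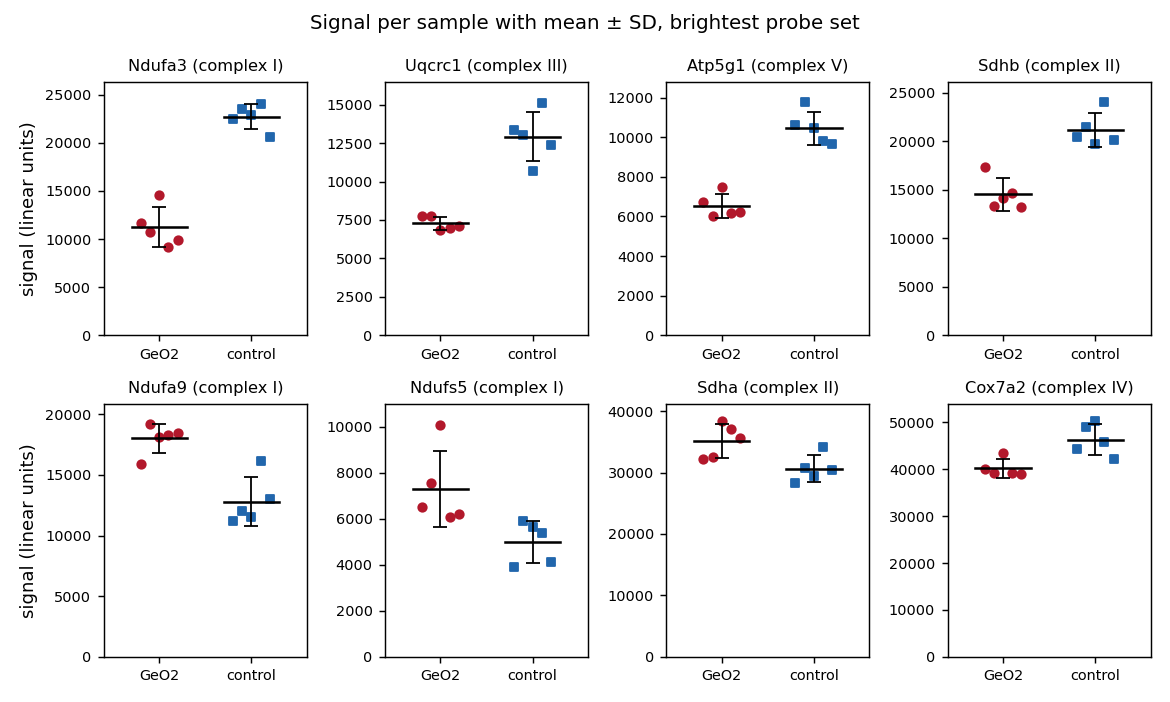
Linear signal of 8 of the genes in each sample at the brightest probe set, GeO2 in red at the left of each panel and control in blue at the right, with bars for the mean and SD of 5 samples; each axis starts at 0. Ndufa3, Uqcrc1, Atp5g1 and Sdhb are lower in every GeO2 sample than in any control sample, Ndufs5 is higher in every one, and Ndufa9, Sdha and Cox7a2 overlap.

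The complexes were compared through the mean log2 deviation of their genes from the control mean in each sample. For complex V this mean was -0.55, -0.72, -0.32, -0.77 and -0.79 in GeO2 replicates 1 to 5, and 0.02, 0.17, 0.07, -0.06 and -0.19 in control replicates 1 to 5. For complex I it was -0.38, -0.39, -0.25, -0.50 and -0.53 in GeO2, and -0.06, 0.09, 0.08, 0.06 and -0.16 in control. Complex V was thus below complex I in each of the 5 GeO2 samples. Complex III averaged -0.59 ± 0.12 in GeO2, complex II -0.33 ± 0.15 and complex IV -0.28 ± 0.15, with control SDs of 0.13, 0.14 and 0.11 around 0 (n = 5 each). The groups did not overlap in complexes I, III and V, and in complex II they were apart only by the small gap between GeO2 replicate 3 (-0.15) and control replicate 1 (-0.14). In complex IV GeO2 replicate 3, at -0.01, lay among the control samples. The difference between complexes was not tested, since the genes were picked by name from a table of changed genes and the small complexes rest on 2 or 3 genes.

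**Figure D3:**
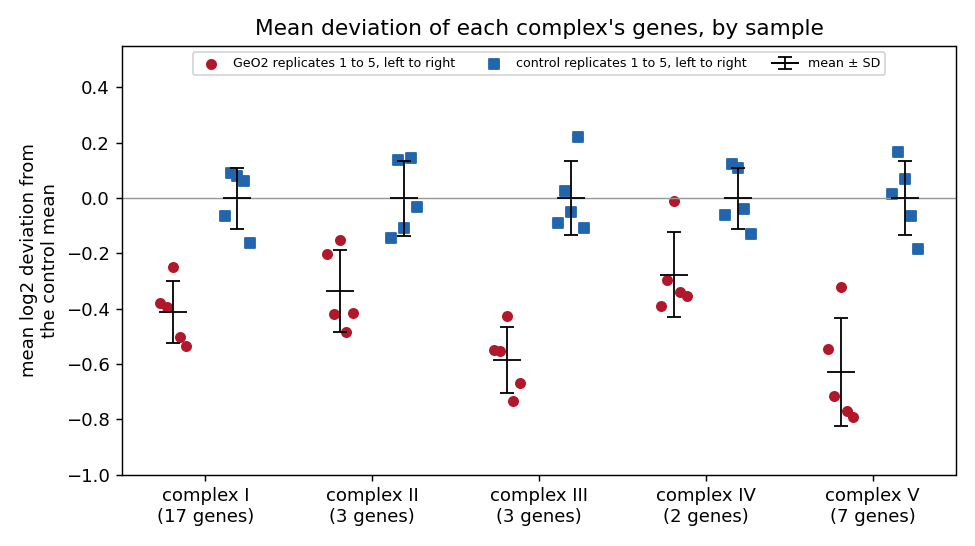
Mean over the genes of each complex of log2(signal + 16) minus the control mean, for GeO2 replicates 1 to 5 (red circles, left to right) and control replicates 1 to 5 (blue squares), with the mean and SD of each group. GeO2 replicate 3 is the highest of its group in every complex, and complexes III and V lie lowest.

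The samples differed among themselves in a way shared by many of the genes. GeO2 replicate 3 was the highest GeO2 sample in 21 of the 32 genes (65.6%), where it was the highest in 23.1% of all tested probe sets. Control replicate 5 was the lowest control sample in 19 genes (59.4%), where it was the lowest in 21% of all tested probe sets. Over the 32 genes the mean deviation was -0.42, -0.48, -0.26, -0.57 and -0.58 in GeO2 replicates 1 to 5, and -0.06, 0.11, 0.05, 0.05 and -0.15 in control replicates 1 to 5. All GeO2 means were below all control means.

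Which calls depended on a single sample was read from 10 fits that left out 1 sample each. Of the 26 genes called at the brightest probe set, 16 passed in all 10, 15 of them lower and Ndufa9 higher. Ndufa8, Ndufb4 and Ndufc2 were lost only without GeO2 replicate 5 (adjusted p 0.0542, 0.0509 and 0.0516). Ndufs8 was lost without GeO2 replicate 5 or control replicates 1 or 2 (up to 0.0609), Ndufb7 without any of GeO2 replicates 2, 4 and 5 or control replicates 1, 3 and 4 (up to 0.0761), and Sdhc without any of GeO2 replicates 4 and 5 or control replicates 2, 4 and 5 (up to 0.0665). Atp5d was lost without any of GeO2 replicates 2, 4 and 5 or control replicates 1 to 4 (up to 0.118), and Atp5j without any of these or control replicate 5 (up to 0.0982). Ndufs5 was lost without GeO2 replicates 2, 3 or 5 or control replicates 1, 4 or 5 (up to 0.103). Of the 10 fits, Cox5a passed only in the one without GeO2 replicate 3, and reached an adjusted p of 0.107 without GeO2 replicate 5.

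The genes with more than 1 probe set allow the changes to be compared within a gene. There were 13 such genes, 10 with 2 probe sets and 3 with 3, which made 16 pairs of the brightest probe set with another. In each pair the difference of the log2 values on each array was tested between the groups, with adjustment over the 1459 such pairs of the table, of which 27% were called. The 2 changes of a pair had the same sign in all 16 pairs, and 3 pairs changed unequally. In 10 of the 16 (62.5%) the dimmer probe set changed more, where over all pairs of the table this was so in 58.7%. Probe sets with names ending in _s_at or _x_at are ones that the array's maker marks as matching several transcripts or as sharing probes with other sequences, and probe sequences were not used here.

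Ndufc2 differed most. Its 3 probe sets changed by -0.26 (1455036_s_at), -0.66 (1460506_s_at) and -1.16 (1416366_at), in order of falling brightness. The brightest had 25614, 24226, 25569.9, 24626 and 24364 in the GeO2 samples, against 28815, 29016, 32679.8, 29497 and 29008 in the control samples. The dimmest had 3088, 3019.6, 4069, 2756 and 2682 in GeO2, against 6824, 8326, 7869, 6084 and 5814 in control, and both probe sets separated the groups. The dimmest fell more than the brightest by 0.90 (95% interval 0.58 to 1.22, adjusted p = 0.000507), and the middle one by 0.40 (0.10 to 0.70, adjusted p = 0.0488). The call of the middle one was near the threshold. Of the 10 fits without 1 sample it held only in those without GeO2 replicate 3 or control replicate 5. Its adjusted p reached 0.13 (without GeO2 replicate 5). Ndufc1, the other subunit of that name pair, behaved likewise: 1448284_a_at had 14619.6, 15511, 14335, 14563 and 13861 in GeO2, against 20591, 18649, 23841, 22550.1 and 17418 in control. Its dimmer probe set 1416285_at had 4147, 5290.5, 7049, 4347 and 4288 in GeO2, against 11479.8, 11086, 12508, 9751 and 8915 in control. Their changes of -0.49 and -1.11 differed by 0.62 (0.28 to 0.96, adjusted p = 0.00801).

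Other genes gave nearly the same change at each probe set. Ndufa3 changed by -1.03 and -1.08, with an interval of -0.14 to 0.23 for the difference, and its second probe set had 9229, 8279, 10642, 6497 and 7435 in GeO2, against 17741, 18216, 17811, 18894 and 15255 in control. The probe sets of Ndufs5 changed by 0.54 and 0.53 (interval -0.26 to 0.28), and those of Ndufa10 by -0.49 and -0.48 (-0.38 to 0.38). The dimmer of Ndufa10, with 760.0 ± 199.8 in GeO2 and 1055 ± 182 in control, did not pass by itself (adjusted p = 0.0967). The 3 probe sets of Ndufs8 changed by -0.40, -0.51 and -0.40, with intervals of -0.09 to 0.30 and -0.27 to 0.25 against the brightest. All 3 are of the _x_at kind, and the dimmest did not pass (adjusted p = 0.0615).

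The remaining pairs did not pass, with intervals that leave room for differences of some size. Ndufv2 changed by -0.29, -0.47 and -0.27, and the dimmer probe sets passed the test of the groups (adjusted p = 0.0125 and 0.0357) where the brightest did not. The intervals of the differences were -0.06 to 0.42 and -0.25 to 0.21. For Ndufb7, with changes of -0.31 and -0.58, the interval was 0.01 to 0.52 (adjusted p = 0.131), and for Ndufb4, with -0.40 and -0.63, it was -0.03 to 0.48. Atp5d changed by -0.45 and -0.69 (-0.02 to 0.51), and Cox7a2 by -0.20 and -0.36 (-0.05 to 0.37). Ndufab1 and Ndufb2 ran the other way, with a dim probe set that changed less: -0.88 and -0.40 for Ndufab1 (-0.89 to -0.06, adjusted p = 0.0946), and -0.72 and -0.40 for Ndufb2 (-0.79 to 0.16). Those dim probe sets averaged 325 ± 25.5 and 626 ± 149 in GeO2, against 436 ± 54 and 815 ± 65.5 in control (SD, n = 5 each), and neither passed. Without GeO2 replicate 3 the pairs of Ndufab1 (adjusted p = 0.00428) and Atp5d (0.0394) also changed unequally.

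**Figure D4:**
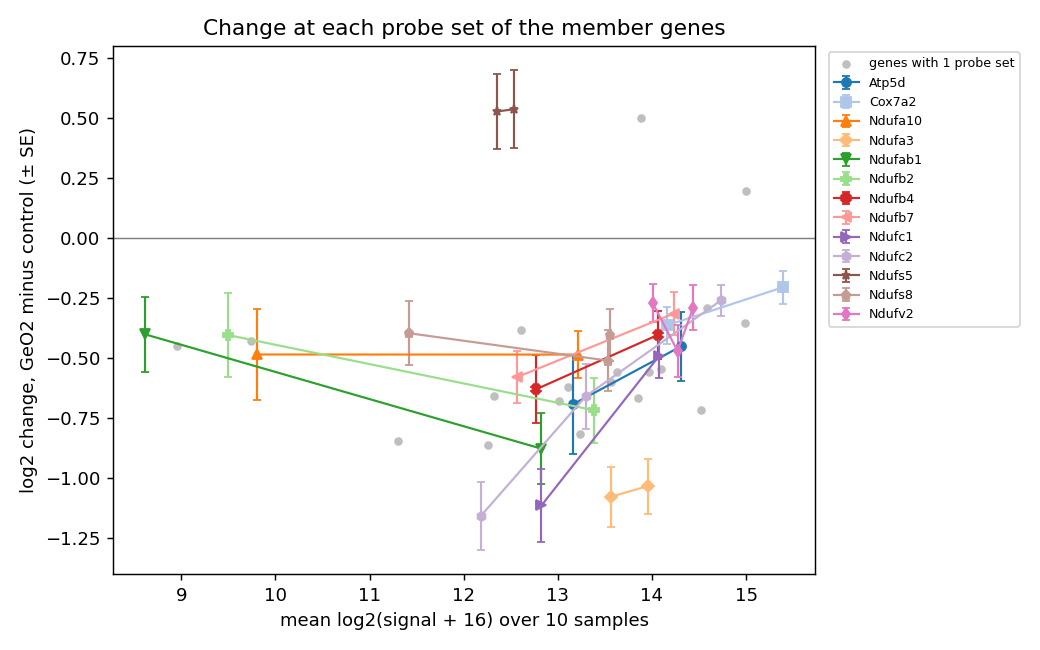
Log2 change, GeO2 minus control, with its standard error, against the mean log2 level of each of the 48 probe sets; lines join probe sets of 1 gene and grey points are genes with 1 probe set. The lines of Ndufc1 and Ndufc2 are steep, with changes of -1.11 and -1.16 at the dim end, while those of Ndufa3, Ndufs5 and Ndufa10 are nearly flat.

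Other genes of the pathway were named by the same table. Of the subunits left out by the rule, 7 of 8 genes were lower and Atp5c1, the gamma subunit of the F1 head, was higher (log2 change 0.90). Atp5k, subunit e of ATP synthase, had the largest decrease among these 8 genes (-1.49). A further 12 subunit and assembly genes were listed under older symbols, of which 9 were lower and 3 did not pass. Among them Uqcr10 and Uqcrq, small subunits of complex III, changed by -1.31 and -1.06, Ndufa12 of complex I by -0.70, and Ndufb11 of complex I by -0.24 at its brightest probe set, which did not pass (adjusted p = 0.0701). The other 2 probe sets of Ndufb11 were lower, by -0.31 and -0.71 (adjusted p = 0.0387 and 0.00363). Over the lists of all nuclear subunits, with the ATP synthase inhibitor Atpif1 in that of complex V, and counting the genes named and tested, complex I had 13 of 19 lower and 2 higher, complex II 2 of 3 lower, complex III 5 of 6 lower, complex IV 5 of 6 lower and complex V 12 of 13 lower and 1 higher. The lists themselves hold 37, 4, 9, 19 and 18 genes, and the members not in the table were not analysed here. The 13 subunits encoded in mitochondrial DNA were not analysed here.

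Of 45 assembly factors, 12 were tested, 8 of them lower and 2 higher. Of all tested probe sets in the authors' table, 28.5% were called lower and 31.2% higher. The largest decreases of these 12 were those of Cox14 and Coa3, which assist the assembly of complex IV (-1.09 and -1.06), and Oxa1l, the insertase of the inner membrane, and Coa5 were higher (0.60 and 0.44). Of 19 genes of electron carriers and coenzyme Q synthesis, 7 were tested and 2 were lower (Coq4 and Coq10a, by -0.60 and -0.47); Cycs, cytochrome c, had a change of -0.21 that did not pass (adjusted p = 0.0661). Of 9 genes of adenine nucleotide and phosphate carriers 2 were tested: Slc25a4 and Slc25a5, which exchange ADP and ATP across the inner membrane, did not pass (-0.23 and -0.20, adjusted p = 0.0939 and 0.0818). Of 15 regulators of respiratory genes, 8 were tested, of which 3 were higher and 5 did not pass. These 3 of 8 higher, and the 2 of 7 electron carrier and coenzyme Q genes lower, are near the shares of the whole table. Nrf1 averaged 782 ± 233 in GeO2 and 310.5 ± 162 in control (SD, log2 change 1.39, adjusted p = 0.0122). It was dim, with a control mean below the lowest array median of 446.8. Its control signals were 227, 212, 145, 506 and 462. Yy1 averaged 881 ± 95 in GeO2 and 585 ± 69 in control (0.58, adjusted p = 0.0137). Nfe2l2, the oxidative stress factor, changed by 0.36 (adjusted p = 0.0327). Gabpa, a GABP subunit, and the coactivator Ppargc1a had changes of 0.39 and -0.62 that did not pass (adjusted p = 0.0981 and 0.0514).

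The genes whose samples varied most like the mean of the subunits were looked for among the 6537 other probe sets of the table with 1 symbol. Likeness was Pearson's correlation of log2 values over the 10 samples after the group means were taken out. The 5 highest were Nmt1, an N-myristoyltransferase (0.96), Eno1, the glycolytic enolase (0.95), Dbi, the acyl-CoA binding protein (0.94), Mrpl35, a mitochondrial ribosomal protein (0.93), and Shkbp1 (0.92). Their log2 changes were between -0.58 and -0.42, and 4 of the 5 passed the test of the groups; Mrpl35 did not (adjusted p = 0.0544). The correlations rest on 10 arrays and are a description.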

How the data were processed

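Cochlea RNA of 10 samples (5 GeO2, 5 control) was hybridised to Affymetrix arrays, 1 per sample. The deposited values are linear intensities for 45037 probe sets, made with GCOS 1.3 per the submitters' processing notes. The 2% trimmed mean lay between 1495.6 and 1496.5 on every array, so the authors' values were already scaled, and array medians ran between 446.8 and 508.4. Array correlations lay between 0.915 and 0.972. Precision is limited by how many arrays there are.

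For 7806 probe sets the authors' deposited table lists p-values beside a score, the fold change with its sign. All of its p-values are under 0.05, the highest being 0.04997. The note under it prints the thresholds with the inequalities the other way round. It was used here only for symbols. 1 probe set of Atp5o listed with a second locus was left out. Of the 32 member symbols 31 were current in the RefSeq gene table and 1 (Uqcr) was updated; all 21 RefSeq accessions beside member probe sets named the same gene.

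Log2(signal + 16) was fitted with limma 3.58.1 in R 4.3.3 (lmFit, then two-sided eBayes with its mean-variance trend) after the lowest 40% of probe sets by mean were left out, and adjustment was by Benjamini-Hochberg over 27022 probe sets. Differences are GeO2 minus control, and the scale understates the change of dim probe sets. The code was tested on simulated data. Other normalizations, offsets, filters and models and fits without each sample were run. The members and gene lists were chosen with earlier results of these data known. Named with values were, per complex, the 4 most negative and 2 most positive genes, all genes with several probe sets, and those of redox centres or the catalytic site. Ndufa8, Ndufs4, Ndufa11 and Atp5o, outside that rule, were given to account for every member. No cell type was assigned from the marker lists. Replicate numbers did not pair the samples.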

Additional observations from a re-analysis of the deposited data

Results flagged for a closer look

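Within groups of 5 samples, 5 of 108 groups (4.63%) had 1 sample set apart from the other 4 by Dixon's criterion at a critical value of 0.71, and chance gives about 1 in 20. GeO2 replicate 3 was the sample apart in 4 of these. For Ndufs5 at probe set 1416494_at it had a signal of 8516, against 5609 to 6106 in the other GeO2 samples. For Cox7a2 at 1416970_a_at it had 43579, against 38967 to 39996 in the other GeO2 samples. For Atp5l it had 2965, against 1491 to 1796 in the others. The mean log2 deviation of complex IV in this sample was -0.01015, against -0.39 to -0.30 in the other GeO2 samples. Control replicate 3 had a signal of 32680 for Ndufc2 at 1455036_s_at (32679.8 as deposited), against 28815 to 29497 in the other control samples. No cause was tested.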

How the results depend on the processing

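The number of member probe sets called lower, 35 of 48, was 36 after quantile normalization, 28 with each array shifted to 1 median, 28 without a filter, 29 without the mean-variance trend, 37 with array weights, 38 of 45 with the lowest 60% left out, and 35 with offsets of 1 or 64. No member changed direction under these settings or in the fits without 1 sample. The number called higher, 3, was 1 without a filter and 1 without the trend, where both Ndufs5 probe sets were lost, and 4 after quantile normalization and with array weights, where Sdha also passed. Without 1 sample it ranged between 1 and 3, the members called lower between 24 (without GeO2 replicate 5) and 37, the pairs of 1 gene that changed unequally between 2 and 5 (5 without GeO2 replicate 3), and all probe sets called between 2795 (without GeO2 replicate 5; 2816 without control replicate 1) and 4855, against 4408. The pairs called were 3 as reported, 2 without a filter (adjusted p = 0.0518 for the middle probe set of Ndufc2), and 4 after quantile normalization and with array weights, where Ndufab1 was added. The median change of the members stayed between -0.53 and -0.46 in the fits without 1 sample, and was -0.44 with each array shifted to 1 median. With the replicate number as a block, 36 members were lower and 3 higher, 4431 probe sets were called in all, and 2 pairs of 1 gene were called, the middle probe set of Ndufc2 being lost (adjusted p = 0.0608); Uqcr then passed (adjusted p = 0.0494). Same-numbered samples deviated together with correlations between -0.05 and 0.17, and only number 5 correlated best with its own number, so the numbers were not used to pair samples. Shifting each array to 1 median moved the share of calls that were lower to 39.9%, against 47.9%, and Ndufb4, Ndufb7, Ndufc2, Cox5a, Atp5d and Atp5j were then not called at their brightest probe sets.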
